A study of Homo sapiens with 10 samples.

Results

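Phosphorylated H2A.X is a signal that marks broken DNA, and the proteins described here write it, bind it or act on what is built upon it. After a double-strand break, kinases of the ATM family phosphorylate the tail of the histone variant H2A.X, MDC1 binds the phosphorylated tail, and ubiquitin ligases recruited by MDC1 add marks that TP53BP1 and the BRCA1-A complex read. The rule named 10 genes, which are ATM, MRE11, RAD50, NBN, MDC1, RNF8, RNF168, UIMC1, TP53BP1 and PAXIP1, and took all their probe sets. Of these 10 genes, 7 had a named probe set, with 14 probe sets in all, among 14884 named genes and 16098 named probe sets. ATM, RNF8 and RNF168 were not analysed here. The rule lists the genes by name and uses no measured value, but the list was drawn up with earlier results of these data known.

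The samples were 5 arrays of H2A.X-KO cells and 5 arrays of WT cells. H2A.X-KO cells are MCF10A cells in which the H2A.X gene was knocked out, and WT cells are the parental MCF10A cells. MCF10A is a human mammary epithelial cell line that does not form tumours. All 10 samples came from the same medium, with horse serum, EGF, hydrocortisone, cholera toxin and insulin, after 48 h of culture, and each gave 1 ug of total RNA for labelling on Affymetrix arrays. Samples carry the numbers 1 to 5 in each group. No label tells if the 5 were independent cultures or if the knockout was a single clone, so each p-value reflects the spread among these arrays alone, and that spread may be technical. H2AX itself was not analysed here, so the groups rest on the labels.

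Values are log2 signals, and differences are H2A.X-KO minus WT on that scale. Over the 14884 genes the arrays correlated at 0.991 to 0.996 within groups and 0.975 to 0.979 between groups. H2A.X-KO replicate 1 stood apart on the second principal component, at 20.2 against -9.47 to -2.52 for the other knockout arrays. Of the basal epithelial markers, KRT5, KRT14 and EGFR were measured, and all 3 rose in H2A.X-KO cells, with mean signals of 10.70 to 10.88 on the H2A.X-KO arrays and 9.35 to 9.51 on the WT arrays. Over the 10 arrays, all 6 measured endothelial, 3 fibroblast and 3 adipocyte markers had means under the median of all gene means, 5.49. So had 2 of 4 measured immune cell markers. The fibroblast marker DCN averaged 6.11 on the H2A.X-KO arrays, above that median, and 4.06 on the WT arrays. Of the 16 measured markers of other cell types, DCN (2.06) and CSF1R (0.72) rose, CD14 (-0.76) and CD68 (-0.37) fell and the other 12 did not pass. The 22 measured markers of cycling cells moved with the groups. Of these, 20 rose and 0 fell, and their mean signal was 7.99 to 8.13 on the H2A.X-KO arrays and 7.09 to 7.20 on the WT arrays. Their part in the differences below was not tested. Fewer cells of a type and less RNA per cell cannot be told apart in such bulk samples.

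A call means an adjusted p under 0.05 in limma, with Benjamini-Hochberg adjustment over all 14884 genes. Of the 7 measured genes 5 were called, beside 34.3% of all genes. MRE11 and PAXIP1 rose, beside 15.3% of all genes. RAD50, MDC1 and UIMC1 fell, beside 19.0% of all genes. NBN and TP53BP1 did not pass. In 4 of the 7 genes the groups did not overlap, beside 28.2% of all genes, and MRE11 alone among the 7 differed by 2-fold or more. The median difference of the 7 genes was -0.16, beside 0.00 over all genes. All 7 were bright, at percentiles 72.6 to 99.5 of the gene means, and bright genes were called more often. Among the 7442 genes at or above the median of gene means, a background added after the values were seen, 55.6% were called, 24.1% rose, 31.5% fell and 48.9% had groups that did not overlap. The count of 5 of 7 is therefore close to the share among bright genes, and nothing particular to these genes is read from it. The number that fell, 3, was 1 under quantile normalisation and 1 without H2A.X-KO replicate 2, 3 or 4 or without WT replicate 4, and UIMC1 is the fall that remained in each of these.

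**Figure D1:**
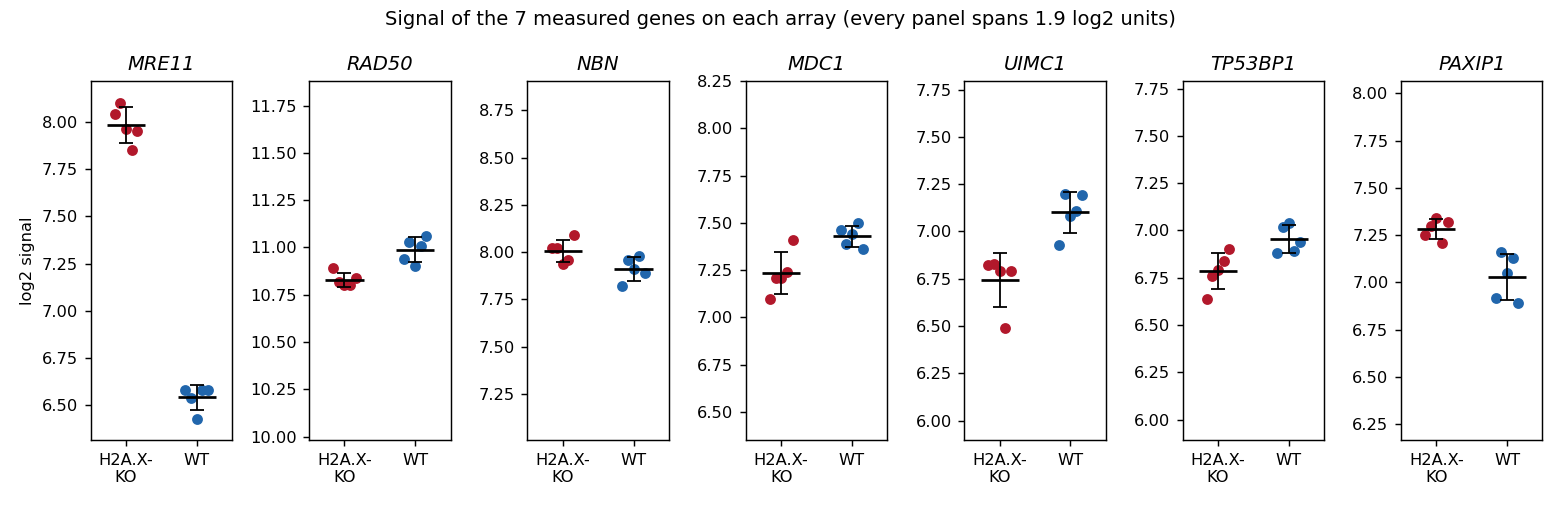
Log2 signal of each measured gene (vertical axis, every panel spanning the same range) on the 5 H2A.X-KO arrays (red, left) and the 5 WT arrays (blue, right), with the group mean and SD in black. MRE11 stands at 7.98 in H2A.X-KO and 6.54 in WT cells, and in the other panels the means differ by 0.36 or less.

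Of the 7 measured genes, 5 matched the RefSeq promoter table of GRCh38.p14. NBN and PAXIP1 did not match, so whether either shares a start region with another gene was not examined. Start regions are shown for MRE11 and TP53BP1, the 2 matched genes whose listed start lies within 1000 bases of an oppositely transcribed one. They are also shown for RAD50, MDC1 and UIMC1, which fell. Capitals mark CCAAT, the box bound by NF-Y, and CCGGAAG, a core bound by ETS family factors, searched on both strands, so ATTGG is a CCAAT on the other strand. The first sequence is the 139 bases between the RefSeq starts of MRE11 and ANKRD49, at chr11:94493845-94493983, read on the minus strand towards MRE11. The TP53BP1 sequence is the 250 bases before its start, at chr15:43510641-43510890 on the minus strand, within the 313 bases that part it from the start of MAP1A. RAD50 is shown at chr5:132556727-132556976 on the plus strand, MDC1 at chr6:30717282-30717531 on the minus strand and UIMC1 at chr5:177006795-177007044 on the minus strand. The table lists 1 start for MRE11, 94493844, which lies 18568 bases inside the RefSeq gene span, so ANKRD49 lies within that span and the pairing rests on this start. It lists 3 starts for UIMC1, 15808 to 16160 bases inside its RefSeq gene span, and the first is shown. The sequence at the end of that span was not examined.
MRE11 and ANKRD49: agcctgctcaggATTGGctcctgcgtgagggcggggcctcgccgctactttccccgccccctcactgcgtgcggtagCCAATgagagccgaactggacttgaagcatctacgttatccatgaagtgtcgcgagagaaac
TP53BP1: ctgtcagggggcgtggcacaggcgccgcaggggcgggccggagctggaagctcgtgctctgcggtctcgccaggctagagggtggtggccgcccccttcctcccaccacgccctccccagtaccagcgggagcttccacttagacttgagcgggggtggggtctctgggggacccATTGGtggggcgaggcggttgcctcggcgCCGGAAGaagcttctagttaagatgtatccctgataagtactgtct
RAD50: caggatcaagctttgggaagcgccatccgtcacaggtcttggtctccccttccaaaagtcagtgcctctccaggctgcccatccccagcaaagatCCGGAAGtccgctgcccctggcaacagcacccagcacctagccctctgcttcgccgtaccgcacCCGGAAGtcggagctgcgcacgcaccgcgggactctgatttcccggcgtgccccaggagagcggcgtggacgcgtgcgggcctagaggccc
MDC1: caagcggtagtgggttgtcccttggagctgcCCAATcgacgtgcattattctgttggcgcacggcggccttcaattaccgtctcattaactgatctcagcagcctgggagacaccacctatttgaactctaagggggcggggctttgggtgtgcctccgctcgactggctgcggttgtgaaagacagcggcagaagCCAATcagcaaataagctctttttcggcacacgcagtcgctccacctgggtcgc
UIMC1: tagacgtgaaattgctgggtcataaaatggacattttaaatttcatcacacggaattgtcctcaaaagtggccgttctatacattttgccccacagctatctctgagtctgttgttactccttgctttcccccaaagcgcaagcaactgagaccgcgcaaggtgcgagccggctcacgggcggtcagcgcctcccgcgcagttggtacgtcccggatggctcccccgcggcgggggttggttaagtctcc
In the 250 bases before the start, CCAAT was present in 3 of the 5 matched genes, MRE11, MDC1 and TP53BP1, and in 33.0% of 27305 genes. CCGGAAG was present in RAD50, MRE11 and TP53BP1, and in 8.82% of genes. The 1 match of MRE11 is not within the 139 bases shown, so it reaches past the start of ANKRD49. The E2F forms TTTCCCGC, TTTCGCGC, TTTGCCGC and TTTGGCGC were in none of the 5 windows and in 2.79% of genes, by the first listed window of each. The windows of all 3 UIMC1 starts held none of these motifs. These are matches of letters only.

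MRE11, RAD50 and NBN encode the MRN complex, which binds DNA ends and activates ATM, and their RNAs did not move together. MRE11, the nuclease of the complex, rose 2.71-fold, while RAD50, its ATPase that bridges DNA ends, fell slightly and NBN, its adaptor to ATM and MDC1, did not pass.

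MRE11 (probe set 16743374; chromosome 11, 94415570 to 94512412 in GRCh38.p14, as for the positions below) had log2 signals of 8.04, 8.10, 7.96, 7.85 and 7.95 in H2A.X-KO cells, against 6.58, 6.54, 6.43, 6.58 and 6.58 in WT cells. Every H2A.X-KO array lay above every WT array, with a wide gap between the groups. The means were 7.98 ± 0.0933 in H2A.X-KO and 6.54 ± 0.0631 in WT cells (SD, n = 5 each). The difference was 1.44 ± 0.06 (SE, limma, adjusted p = 2.35e-09), the 71st largest rise among all genes, and 1.01% of genes lay as far from 0 in either direction. The exact permutation test over the 252 splits of the arrays gave p = 0.00794, the smallest it can give. With an array left out the difference ran between 1.41 and 1.47.

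RAD50 (16989054; chromosome 5, 132556977 to 132646349) had log2 signals of 10.89, 10.82, 10.80, 10.80 and 10.84 in H2A.X-KO cells, against 10.94, 11.03, 10.90, 11.01 and 11.06 in WT cells. All H2A.X-KO arrays were lower than all WT arrays, but the nearest pair differed by little. The difference was -0.16 ± 0.05 (SE, limma, adjusted p = 0.0304), and 45.1% of all genes lay as far from 0. The call was lost under quantile normalisation (-0.11, adjusted p = 0.141) and with the replicate number as a block (adjusted p = 0.0675). It was also lost with all probe sets of the table fitted together (adjusted p = 0.0742), and when any of 6 arrays was left out. These were H2A.X-KO replicates 2, 3 and 4 (adjusted p of 0.0608, 0.0628 and 0.0632) and WT replicates 2, 4 and 5 (0.0728, 0.0621 and 0.0740).

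NBN (17078916; chromosome 8, 89933331 to 89984667) had log2 signals of 8.02, 8.02, 7.94, 7.96 and 8.09 in H2A.X-KO cells, against 7.82, 7.96, 7.91, 7.98 and 7.89 in WT cells. The groups overlapped, with 3 of 5 H2A.X-KO arrays above the highest WT array. The difference was 0.09, with a 95% interval of -0.02 to 0.21 (limma, adjusted p = 0.220), and it passed under quantile normalisation (0.15, adjusted p = 0.0474).

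Within each array, the log2 ratio of MRE11 to RAD50 was -2.94 to -2.72 on the H2A.X-KO arrays and -4.49 to -4.36 on the WT arrays. The ratio of MRE11 to NBN was -0.14 to 0.08 on the H2A.X-KO arrays and -1.48 to -1.24 on the WT arrays. That of RAD50 to NBN was 2.75 to 2.87 on the H2A.X-KO arrays and 2.99 to 3.17 on the WT arrays. These ratios compare probe sets, so they give a shift between groups and not the proportions of the RNAs, and they were not tested. The shift was 1.60 for MRE11 to RAD50, 1.34 for MRE11 to NBN and -0.26 for RAD50 to NBN.

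The genes whose signals followed MRE11 most closely over the 10 arrays were CSTA, SQLE, MYOF, EHF and CYB5R1, with Pearson correlations of 0.9945 to 0.9983. All 5 rose, and the correlations rest mainly on the gap between the groups that they share with MRE11.

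MDC1 is the scaffold that binds the phosphorylated tail of H2A.X directly through its BRCT repeats. Its signal was slightly lower in H2A.X-KO cells by every probe set, and the call did not outlast the loss of single arrays. MDC1 lies on chromosome 6, at 30699807 to 30717281, and had 8 probe sets, while each of the other 6 genes had 1. The brightest, 17039133, had log2 signals of 7.10, 7.21, 7.21, 7.24 and 7.41 in H2A.X-KO cells, against 7.46, 7.39, 7.44, 7.50 and 7.36 in WT cells. In 4 of 5 H2A.X-KO arrays the signal was under the lowest WT array, and H2A.X-KO replicate 5 lay within the WT range.

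The MDC1 difference by this probe set was -0.19 ± 0.06 (SE, limma, adjusted p = 0.0312), or 0.874-fold. It no longer passed without H2A.X-KO replicate 1, 2, 3 or 4 (adjusted p of 0.0645, 0.0634, 0.0611 and 0.0534) or without WT replicate 1, 3 or 4 (0.0655, 0.0609 and 0.0740). It also did not pass under quantile normalisation (-0.15, adjusted p = 0.0707). The same held with the replicate number as a block (adjusted p = 0.0693) and with all probe sets of the table fitted together (adjusted p = 0.0756). All 8 probe sets were lower in H2A.X-KO cells, by differences of -0.22 to -0.18. In a fit over all 16098 named probe sets, of which 33.2% were called, 7 of the 8 passed, with limma adjusted p of 0.00954 to 0.107. They are no independent measurements, because all 8 are annotated to 1 RefSeq transcript and 2 pairs of them held the same value on every array. MDC1 lies in the major histocompatibility complex, for which the human reference also holds alternative haplotype sequences. Whether the 8 probe sets measure copies of the same sequence on such haplotypes was not tested, so their shared direction adds little to that of the brightest one. The groups did not overlap in 3 of the 8.

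**Figure D2:**
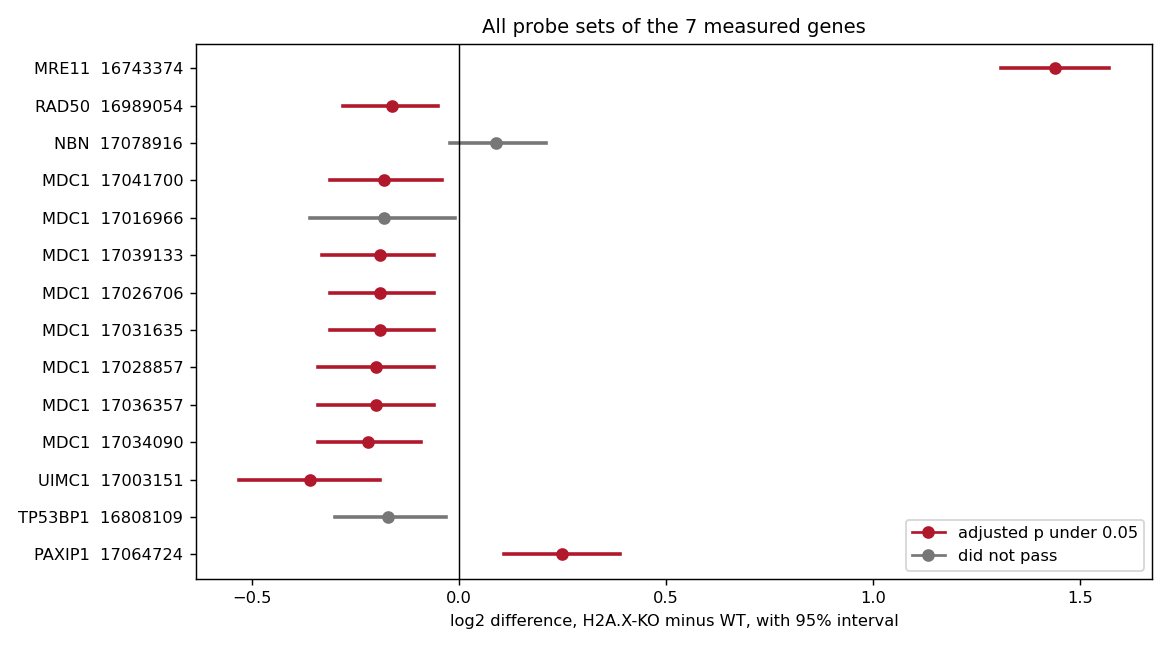
Log2 difference, H2A.X-KO minus WT (horizontal axis), with its 95% interval for each of the 14 probe sets, in red where the adjusted p was under 0.05. The 8 MDC1 probe sets lie together between -0.22 and -0.18, and MRE11 stands alone at 1.44.

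UIMC1, also called RAP80, brings the BRCA1-A complex to ubiquitin chains at breaks and showed the lowest of the 7 differences. UIMC1 (17003151; chromosome 5, 176905005 to 177022602) had log2 signals of 6.82, 6.83, 6.79, 6.49 and 6.79 in H2A.X-KO cells, against 6.93, 7.20, 7.08, 7.11 and 7.19 in WT cells. No H2A.X-KO array reached the lowest WT array, and H2A.X-KO replicate 4 was lower than the rest. The difference was -0.36 ± 0.08 (SE, limma, adjusted p = 0.00283), or 0.780-fold. It passed with each array left out, at -0.40 to -0.30.

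TP53BP1, which encodes 53BP1, reads a ubiquitin and a methyl mark on nucleosomes near breaks and favours end joining over resection. TP53BP1 (16808109; chromosome 15, 43403061 to 43510640) had log2 signals of 6.64, 6.76, 6.79, 6.84 and 6.90 in H2A.X-KO cells, against 6.88, 7.02, 7.04, 6.89 and 6.94 in WT cells. Again 4 of 5 H2A.X-KO arrays lay under the lowest WT array, and replicate 5 did not. The difference was -0.17, with a 95% interval of -0.30 to -0.03, and did not pass after adjustment over all genes (limma, adjusted p = 0.0587). It passed without H2A.X-KO replicate 5 (-0.20, adjusted p = 0.0353).

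PAXIP1, also called PTIP, is a BRCT protein that binds phosphorylated 53BP1 and is also a subunit of the KMT2C and KMT2D histone methyltransferase complexes. PAXIP1 (17064724; chromosome 7, 154943690 to 155003411) had log2 signals of 7.25, 7.30, 7.34, 7.21 and 7.32 in H2A.X-KO cells, against 6.92, 7.16, 7.05, 7.13 and 6.89 in WT cells. The H2A.X-KO arrays lay close together and above all WT arrays. The difference was 0.25 ± 0.06 (SE, limma, adjusted p = 0.00791), or 1.19-fold, and it passed with each array left out, at 0.22 to 0.28.

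**Figure D3:**
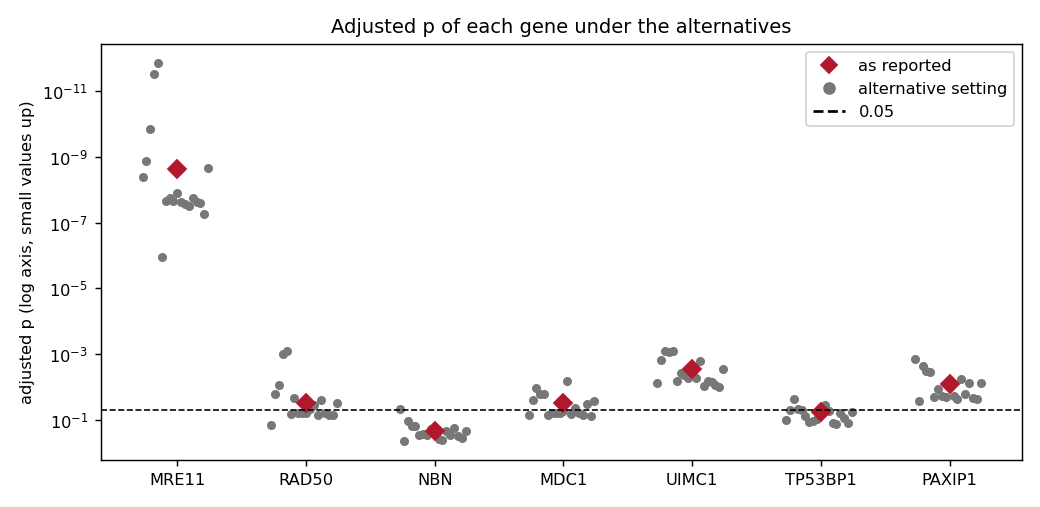
Limma adjusted p (vertical log axis, small values up) of each measured gene as reported (red) and under 18 alternative settings (grey), with the threshold of 0.05 dashed. MRE11, UIMC1 and PAXIP1 stay past the threshold in all 18, RAD50 in 9 and MDC1 in 8.

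The pathway around these genes was described through 8 lists, which held 115 other genes, 75 of them measured. Of the 75, 21 rose, 22 fell and 32 did not pass, and their median difference was 0.05. All genes together had a median of 0.00, with 34.3% called. BRIP1, EXO1 and CLSPN had the largest differences among the 75, 2.13, 1.68 and 1.15, and the lowest was that of UBE2A, -0.63.

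Kinases and phosphatases of H2A.X had 6 measured genes, whose median was 0.14, with 2 rises and 1 fall past the test. EYA3, a tyrosine phosphatase known to act on H2A.X, averaged 7.52 ± 0.0505 in H2A.X-KO and 7.03 ± 0.0820 in WT cells (SD, n = 5 each) and rose by 0.49. ATRIP, which brings the kinase ATR to single-stranded DNA, rose by 0.48. ATR itself had log2 signals of 6.94, 6.92, 6.89, 6.93 and 6.97 in H2A.X-KO cells, against 6.71, 6.82, 6.71, 6.88 and 6.84 in WT cells. These groups did not overlap, but the difference of 0.14 did not pass (limma, adjusted p = 0.0619). It passed under quantile normalisation (0.18, adjusted p = 0.0209), without dim genes (0.14, adjusted p = 0.0215) and without WT replicate 4 (0.16, adjusted p = 0.0467). The kinase gene PRKDC was not analysed here.

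Apart from MRE11, RAD50 and NBN, the list of ATM activation and end resection held 8 measured genes, 3 of them up and 3 down past the test. The resection nuclease genes EXO1 and DNA2 rose by 1.68 and 0.85. EXO1 had signals of 7.59, 7.72, 7.74, 7.54 and 7.50 in H2A.X-KO cells, against 5.67, 5.78, 6.19, 6.13 and 5.89 in WT cells. TTI1, a cofactor in the folding of ATM family kinases, rose by 0.73 and ATMIN, an ATM interactor, fell by 0.53.

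Beside MDC1, NBN, TP53BP1 and PAXIP1, the list of readers and scaffolds held 3 measured genes, and 0 of the 3 passed in limma, with differences between -0.11 and 0.14. In the ubiquitin and SUMO cascade, whose median was -0.11, 3 of 17 measured genes rose and 8 fell. The conjugating enzyme gene UBE2A fell by 0.63, UBE2V2 by 0.49, and RNF4, a ligase directed to SUMO, by 0.56. UBE2V1, which encodes a partner of the enzyme UBE2N, rose by 0.48. UBE2V1 and UBE2V2 encode closely related proteins, and whether their probe sets share sequence was not examined.

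UIMC1 stood beside few measured partners. In the list of BRCA1-A and BRCA1 partners, 6 genes other than UIMC1 were measured, of which 3 rose and 1 fell. BABAM1, a subunit of the complex that UIMC1 recruits, fell by 0.22. BABAM2, another subunit, named after its values were seen, was at 0.15 and did not pass (limma, adjusted p = 0.0631). All its H2A.X-KO arrays lay above all its WT arrays. BRIP1, a helicase that binds BRCA1, had signals of 7.82, 7.81, 7.88, 7.74 and 7.78 in H2A.X-KO cells, against 5.28, 5.83, 5.53, 5.79 and 5.94 in WT cells, a rise of 2.13. PALB2, which links BRCA1 to BRCA2, rose by 0.65, and BARD1, the partner of BRCA1 in its ubiquitin ligase, by 0.30. BRCA1 was not analysed here.

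Among 15 measured effectors and regulators of 53BP1 besides TP53BP1 and PAXIP1, 4 rose, 4 fell and the median was -0.01. RIF1, which binds phosphorylated 53BP1, averaged 8.02 ± 0.0317 in H2A.X-KO and 7.77 ± 0.0873 in WT cells (SD, n = 5 each), a rise of 0.25. MAD2L2, a shieldin subunit, fell by 0.34, and STN1, a member of the CST complex, rose by 0.41. KMT5A, the methyltransferase that begins the histone methyl mark read by 53BP1, fell by 0.60. MBTD1, a methyl-lysine reader of the TIP60 complex, rose by 0.81.

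Of 8 measured partners of PAXIP1 in the KMT2C and KMT2D complexes, 1 rose and 2 fell. WDR5, a core subunit, rose by 0.21, while RBBP5, another core subunit, fell by 0.31 and the demethylase gene KDM6A fell by 0.36. Checkpoint kinases and mediators had 5 rises and 4 falls among 17 measured genes, with a median of 0.14. CLSPN, the mediator of CHEK1 activation, rose by 1.15 and TIMELESS by 0.58, while RAD17, the clamp loader, fell by 0.50 and MDM4, a p53 inhibitor, fell by 0.55. The checkpoint kinase genes CHEK1 (-0.08, limma, adjusted p = 0.419) and CHEK2 (0.16, adjusted p = 0.220) did not pass, and CHEK2 passed without WT replicate 4 (0.25, adjusted p = 0.00814). The cycling markers named above had a median of 0.92, beside list medians of -0.11 to 0.15 here, and included RRM2 (2.19), TYMS (1.82), CCNE2 (1.44), CCNA2 (1.43) and MKI67 (0.78).

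**Figure D4:**
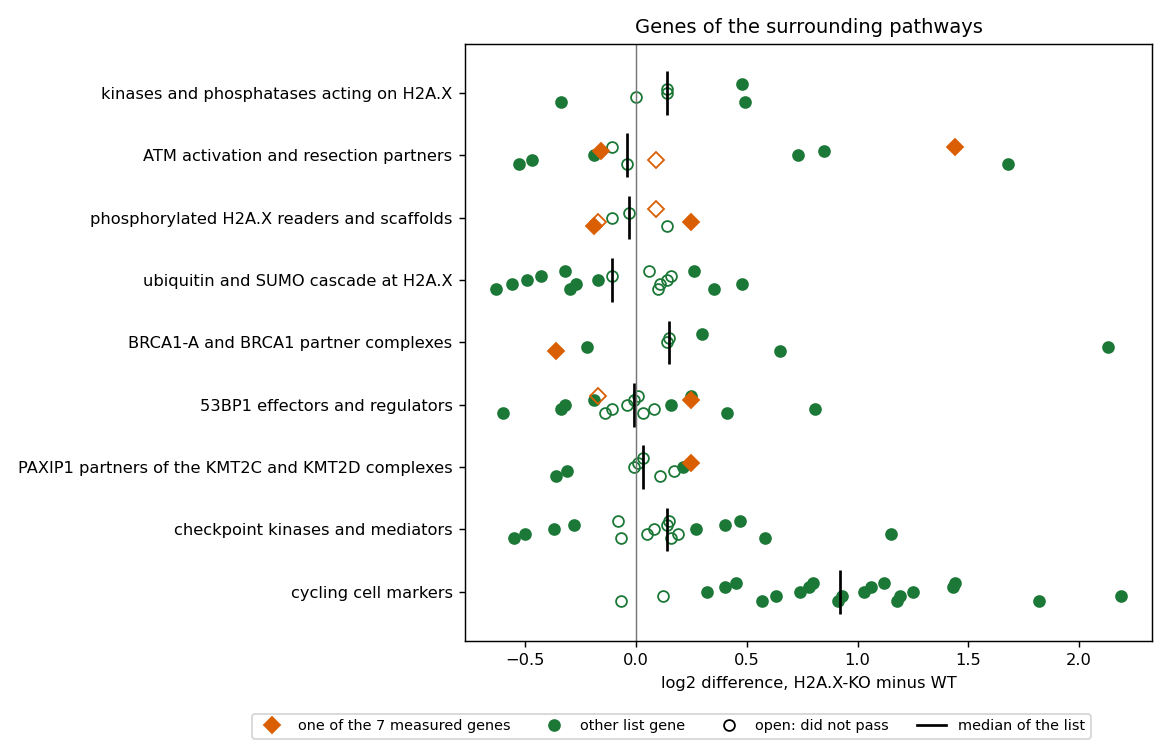
Log2 difference, H2A.X-KO minus WT (horizontal axis), of each measured gene in the 8 pathway lists and in the cycling cell markers, with the measured genes of the rule as diamonds, genes that did not pass as open symbols and the list median as a black bar. The 8 pathway medians lie between -0.11 and 0.15, and that of the cycling markers is 0.92.

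Each gene was also set beside the 10 nearest measured genes on either side. Of the 20 neighbours of MRE11, 7 rose, 3 fell and 10 did not pass, with a median of 0.07. None of the 20 lay as far from 0 as MRE11. Among the 10 neighbours with a mean at or above the median of all gene means, a split made after the values were seen, 6 rose and 2 fell, with a median of 0.30. The same split gave 0 rises, 7 falls and a median of -0.20 for the 12 brighter neighbours of RAD50, and 1 rise, 8 falls and a median of -0.33 for the 12 of TP53BP1. For the 8 brighter neighbours of PAXIP1 it gave 4 rises, 2 falls and a median of 0.25, and for the 14 of MDC1 2 rises, 6 falls and -0.16. The 13 of UIMC1 had 3 rises, 5 falls and a median of 0.01, and the 9 of NBN had 2 rises, 4 falls and -0.02. Among all such brighter genes 55.6% were called. The neighbours nearest to the difference of MRE11 were MIR548L (0.94), which like ANKRD49 lies within the span of MRE11, and AMOTL1 (0.77). With the mean of all its probe sets AMOTL1 rose by 0.55. MIR548L was dim and scattered, at 3.77 ± 0.673 in H2A.X-KO and 2.83 ± 0.523 in WT cells (SD, n = 5 each), and its groups overlapped. Its call (limma, adjusted p = 0.0316) ended without any of H2A.X-KO replicates 3 and 5 and WT replicates 1, 2, 3 and 5 (adjusted p of 0.0542 to 0.0753). The call also ended with a robust intensity trend (limma, adjusted p = 0.0518), with the replicate block (0.0518) and with all probe sets of the table fitted together (0.0761). The other nearest gene, GPR83, was at -0.18 and did not pass. PANX1 rose by 0.49, while C11orf54 fell by 0.68. AMOTL1, PANX1, C11orf54, C11orf97, ANKRD49 and MAP1A were singled out after their values were seen. What part the position of MRE11 has in its difference was not tested.

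ANKRD49, whose start faces the listed start of MRE11 across the first sequence shown above, had signals of 6.87, 6.86, 7.04, 6.96 and 6.94 in H2A.X-KO cells, against 6.55, 6.61, 6.36, 6.73 and 6.49 in WT cells. Both genes of this pair rose, ANKRD49 by 0.39 (limma, adjusted p = 0.000792) and MRE11 by 1.44. Past the end of the RefSeq span of MRE11, at 94512412, the next measured gene was C11orf97, which begins at 94512461. C11orf97 was dim, at 3.11 in H2A.X-KO and 3.16 in WT cells, and did not pass (-0.05, limma, adjusted p = 0.641). Whether its start faces one of MRE11 was not examined. The other pair of facing listed starts among the matched genes was TP53BP1 and MAP1A. MAP1A averaged 4.15 ± 0.113 in H2A.X-KO and 4.05 ± 0.152 in WT cells (SD, n = 5 each). It was dim and did not pass (0.10, limma, adjusted p = 0.423). By the listed starts, MRE11 and TP53BP1, 2 of the 5 matched genes, had an opposite start within 1000 bases, as had 20.1% of genes in the promoter table. The ends of gene spans were not searched for such starts.

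The neighbours of RAD50 included 8 that fell and 0 that rose in limma, with a median of -0.19, and 14 of its 20 neighbours lay at least as far from 0 as RAD50. The nearest on either side were IRF1 (-0.67), which fell, and IL13 (-0.29), which did not pass. Around MDC1 3 rose and 7 fell, with NRM (0.89) and FLOT1 (-0.27) nearest and a median of -0.02. Around UIMC1 3 rose and 5 fell, with a median of 0.02. Its nearest neighbour ZNF346 fell by 0.33. The RefSeq span of ZNF346 begins at 177022696, just past the end of that of UIMC1 at 177022602. Whether their starts face each other was not examined. HK3, on the other side of UIMC1, was at -0.09 and did not pass.

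PAXIP1 lay between PAXIP1-AS2, which overlaps it on the chromosome and fell by 0.59, and PAXIP1-DT, which did not pass (0.19, limma, adjusted p = 0.0522). The RefSeq span of PAXIP1 ends at 155003411 and that of PAXIP1-DT begins at 155003433. Whether their starts face each other was not examined. PAXIP1-DT passed, among others, under quantile normalisation (0.23, adjusted p = 0.0192) and without WT replicate 3 (0.25, adjusted p = 0.00680). Among its 20 neighbours 4 rose and 3 fell, with a median of 0.04. Around TP53BP1 3 rose and 8 fell, and around NBN 2 rose and 5 fell, with medians of -0.07 and -0.03.

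**Figure D5:**
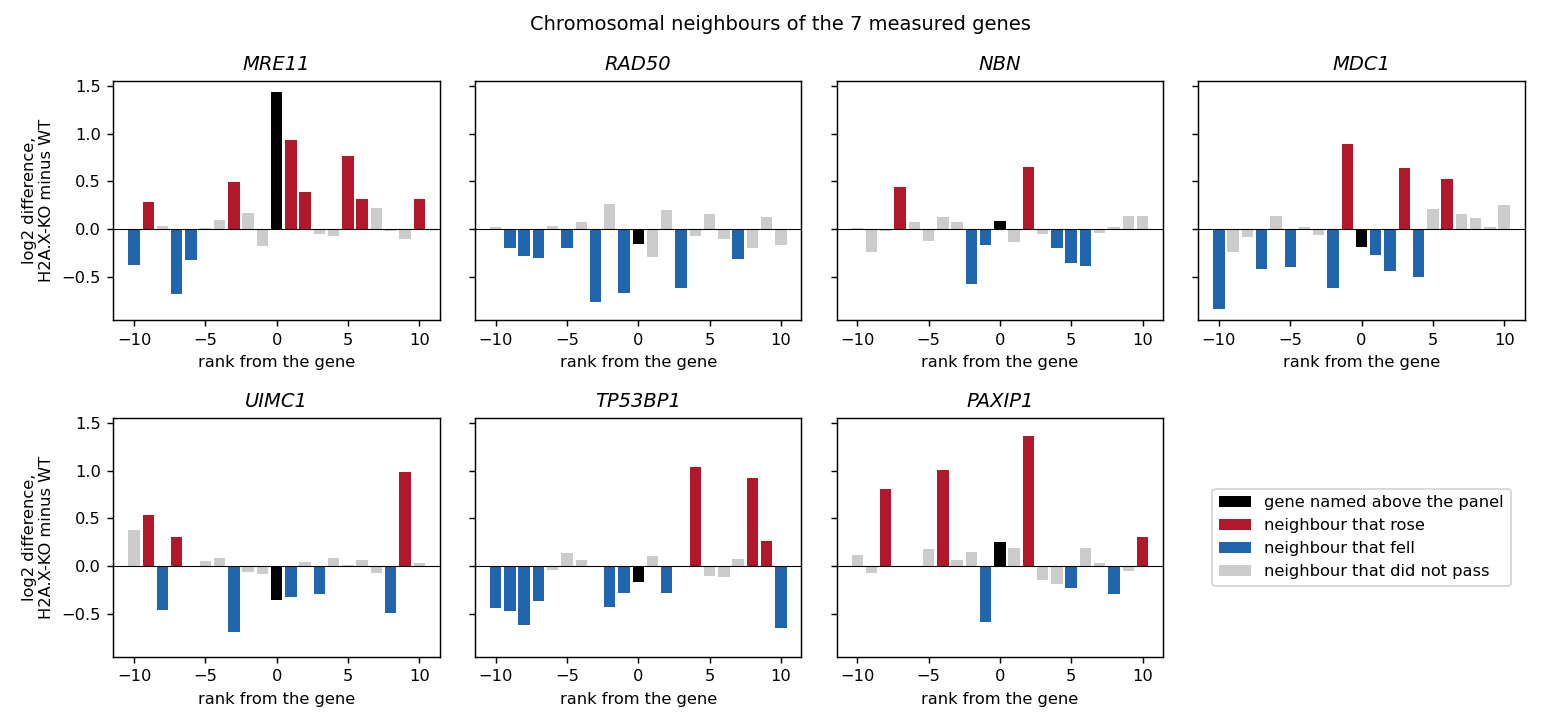
Log2 difference, H2A.X-KO minus WT (vertical axis), of each measured gene (black, at rank 0) and of the 10 nearest measured genes on each side (horizontal axis, rank along the chromosome), with neighbours that rose in red, those that fell in blue and those that did not pass in grey. The MRE11 bar exceeds all 20 of its neighbours, and 8 neighbours of RAD50 fell while 0 rose.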

How the data were processed

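RNA of 5 H2A.X-KO and 5 WT samples of MCF10A was measured on Affymetrix arrays. For each probe set the authors deposited a log2 signal. The submitters' processing notes name Affymetrix Expression Console and Partek 6.6, while the summarisation method, normalisation and filters were not given in the sources used here. Array medians lay within 4.26 to 4.35, and a shift shared by all transcripts cannot be seen on this scale. The table held 53617 probe sets, of which 16098 had 1 gene symbol in the platform annotation, 0 had several and 37519 were not named here. All 16098 matched the RefSeq table of GRCh38.p14 by Entrez identifier, which supplied symbols and gene positions.

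The probe set with the highest mean stood for each of 14884 genes. Each difference came from limma 3.58.1 (lmFit, eBayes; R 4.3.3), with no covariate and no filter, two-sided, with Benjamini-Hochberg adjustment over all genes at 0.05. The median standard error was 0.08, and for arrays their number limits the precision. Other probe sets came from a fit over all named ones. The fit was tested on simulated data, where it recovered 6 of 50 rises of 0.2, 41 of 50 of 0.5 and 48 of 50 of 1. The simulation changed far fewer genes than were called here, so its rates may differ from those of these data. Python 3.11.15 with pandas 2.3.3, numpy 2.4.6 and matplotlib 3.10.9 served for the summaries and plots.

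The members and lists were chosen with earlier results of these data known. Genes named were all members, up to 4 other genes per list that passed with no overlap between groups, 8 genes fixed by name, the nearest measured gene on each side of each called member and the 5 genes most like MRE11. Alternatives were quantile normalisation, centring of each array, leaving out dim genes, an intensity trend with and without robust fitting, the replicate number as a block, each array left out, all probe sets fitted together, the mean of all probe sets of a gene and an exact permutation test.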

Additional observations from a re-analysis of the deposited data

Results flagged for a closer look

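In 11 of 126 groups of 5 arrays examined, the highest or lowest array stood far from the other 4, where chance gives about 1 in 20. WT replicate 3 had the lowest MRE11 signal, 6.43 against 6.54 to 6.58. H2A.X-KO replicate 4 had 6.49 for UIMC1 against 6.79 to 6.83, and without it the difference was -0.30 and still passed (limma, adjusted p = 0.00448). H2A.X-KO replicate 1 was high for RIF1 (8.08, with the others at 8.02 or less) and low for NRM (6.40 against 6.78 to 6.93). H2A.X-KO replicate 5 was low for RRM2 (8.11 against 8.21 to 8.23).

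WT replicate 3 was high for PAXIP1-DT (6.95 against 6.62 to 6.71) and low for UBE2V2 (6.49 against 6.64 to 6.69). WT replicate 4 was high for CHEK2 (5.69 against 5.17 to 5.32) and for MIR548L (3.75 against 2.46 to 2.70). WT replicate 5 was low for C11orf54 (6.68 against 6.87 to 6.94) and for ZNF346 (7.62 against 7.74 to 7.78).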

How the results depend on the processing

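MRE11, UIMC1 and PAXIP1 kept their direction and passed under all 18 limma alternatives, with differences of 1.41 to 1.49, -0.40 to -0.30 and 0.22 to 0.29. RAD50 passed under 9 of 18, not under quantile normalisation (-0.11), with the replicate block (-0.16, adjusted p = 0.0675) or with all probe sets of the table fitted together (-0.16, where more tests are adjusted for). MDC1 passed under 8, not under the same 3 (-0.15, -0.19 with adjusted p = 0.0693, and -0.19). The cause of the loss under quantile normalisation was not tested. TP53BP1 passed without dim genes (-0.17), with an intensity trend (-0.17) and in the exact permutation test (-0.17, unadjusted p = 0.0238). NBN passed under quantile normalisation (0.15) and in that test (0.09, unadjusted p = 0.0476). With an array left out RAD50 ran between -0.18 and -0.14, MDC1 between -0.24 and -0.16 and TP53BP1 between -0.20 and -0.13. The number of called genes of the 7 was 3 with the replicate block, 3 with all probe sets and 3 to 6 with an array left out. The number that fell was 1, 1 and 1 to 4, and 1 under quantile normalisation, against 5 called and 3 fallen as reported. HK3 changed sign without H2A.X-KO replicate 4 (0.01). No label tells if the replicate numbers pair samples, and the correlations between arrays do not settle it. The deviations of the 5 same-numbered pairs correlated at -0.01 to 0.20, and 1 of 5 exceeded 0.1. Of 10 arrays, 3 correlated best with their own number. Signal over background was not analysed here.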
